A study of Homo sapiens with 8 samples.

Results

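The HOX cluster genes are the 39 genes on the array named HOXA, HOXB, HOXC or HOXD followed by a position number, and they were taken by that name alone. They were measured by 45 of the 50599 probes and make up 39 of the 36337 gene names. HOXA had 11 genes and 14 probes, HOXB 10 genes and 11 probes, HOXC 9 genes and 9 probes, and HOXD 9 genes and 11 probes. RNA of 2 cell lines was hybridised to 8 one-colour arrays, 2 per group. The ORI cells are Nthy-ori 3-1, an immortalized line derived from non-tumor thyroid follicular epithelium, and the TT cells are a line derived from a medullary thyroid carcinoma, the tumor of the calcitonin-producing C cells. ORI_premiR-375 cells were transfected with a synthetic precursor of miR-375 and TT_AntagomiR-375 cells with an antisense inhibitor of it, each for 48 h, at 5 nM for precursors and 20 nM for inhibitors by the labels (the methods state higher concentrations). ORI_CTL and TT_CTL are the controls of the same transfections; the labels call them CTL, and the methods name a control precursor and a control inhibitor. Each line is 1 established line, and the methods describe the replicates of the arrays as biological.

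HOX genes encode homeodomain transcription factors that give cells their position along the head-to-tail axis of the embryo. In humans they lie in 4 clusters on different chromosomes, and within a cluster the genes follow each other in the order of their position numbers: low numbers, at the 3′ end, are used early and in anterior tissue, and high numbers, at the 5′ end, late and in posterior tissue. Genes of the same number in different clusters are paralogs. Adult cells tend to keep a pattern of active and silent HOX genes that reflects where their lineage arose, and Polycomb complexes hold the silent ones closed. In the mouse, Hoxa3 and its paralogs are needed for the pharyngeal organs, among them the thyroid and the ultimobranchial body, through which C cells reach the gland.

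The agent of both transfections is shown first, with bases 2 to 8, the seed that pairs with target messages, in capitals. It is encoded on the minus strand at chr2:219001648-219001669 (GRCh38.p14, RefSeq).
hsa-miR-375-3p: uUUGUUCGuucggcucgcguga

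RefSeq windows from 250 bases before to 50 after a gene's start were at hand for 20 of the 39 HOX genes, matched by symbol. Among the genes without one were HOXA5, HOXB2 to HOXB9, HOXB13, HOXC6, HOXC8 to HOXC13 and HOXD9. The windows printed stand for the different outcomes on these arrays: the single window that HOXC4 and HOXC5 share (both higher in TT cells), HOXA9 (read above background in both lines), and HOXB1 and HOXD4 (not read above background on any array). They were searched on both strands for TATAAA, for CCAAT, for a nuclear receptor motif (AGGTCA) and for a form of the joint HOX and PBX site (TGATNNAT). The matches are in capitals, and none overlaps another. CCAAT or its complement ATTGG was in each of the printed windows, against 34.6% of the 35116 windows of all genes. Among the HOX windows not printed, those of HOXA11, HOXD8 and HOXD11 and most of HOXA3 held no CCAAT. Of the printed windows, TATAAA was in that of HOXA9 only, against 11.5% of all windows. TGATNNAT was in that of HOXB1 only, against 7.4%, and AGGTCA in none of the printed windows, against 13.8%. The last bases of the HOXD4 window are also the first bases of the gene's only probe. HOXD4 was thus read near the start of its transcript only. Coordinates are GRCh38.p14, and the HOXA9 and HOXB1 windows are read on the minus strand.
HOXC4 and HOXC5, chr12:54016638-54016937, plus strand: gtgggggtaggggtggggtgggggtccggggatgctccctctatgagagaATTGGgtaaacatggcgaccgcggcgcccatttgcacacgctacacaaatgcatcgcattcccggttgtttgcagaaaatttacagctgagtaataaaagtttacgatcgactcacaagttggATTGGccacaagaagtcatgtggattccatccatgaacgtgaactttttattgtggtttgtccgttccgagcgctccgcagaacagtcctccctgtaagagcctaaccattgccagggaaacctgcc
HOXA9, chr7:27165488-27165787, minus strand: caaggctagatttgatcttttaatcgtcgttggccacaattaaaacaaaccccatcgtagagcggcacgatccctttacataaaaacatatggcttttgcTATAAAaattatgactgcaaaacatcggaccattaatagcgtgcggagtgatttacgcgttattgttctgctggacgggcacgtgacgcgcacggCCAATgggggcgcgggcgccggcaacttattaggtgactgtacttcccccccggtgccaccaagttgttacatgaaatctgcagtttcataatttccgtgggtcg
HOXB1, chr17:48530962-48531261, minus strand: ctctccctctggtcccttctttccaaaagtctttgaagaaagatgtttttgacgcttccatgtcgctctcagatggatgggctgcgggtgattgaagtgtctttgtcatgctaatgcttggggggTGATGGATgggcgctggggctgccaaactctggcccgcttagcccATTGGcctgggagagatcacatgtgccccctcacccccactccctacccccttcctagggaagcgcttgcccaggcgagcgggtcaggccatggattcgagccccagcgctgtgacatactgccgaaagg
HOXD4, chr2:176151300-176151599, plus strand: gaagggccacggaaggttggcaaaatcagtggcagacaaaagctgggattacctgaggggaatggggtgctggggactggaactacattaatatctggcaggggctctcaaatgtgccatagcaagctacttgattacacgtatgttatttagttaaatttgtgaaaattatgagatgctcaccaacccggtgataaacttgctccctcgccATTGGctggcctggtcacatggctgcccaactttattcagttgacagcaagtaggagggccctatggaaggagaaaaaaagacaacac
The HOXC4 and HOXC5 window held 15 CG dinucleotides, that of HOXA9 22, that of HOXB1 11 and that of HOXD4 4, with a median of 14 over all windows.

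For 6 HOX genes the array carried 2 probes, and the probes of a gene could differ. The first 30 bases of the 60-base probes of HOXB2, HOXA9 and HOXA10, the 3 of them read above background on both arrays of a group, are printed to show that they are different stretches of the transcript, with the probe that stands for the gene (the one with the higher mean over the 8 arrays) first in each pair. No letter is capitalised because no part is singled out. All lie on the minus strand of hg19.
HOXB2, chr17:46620127-46620186: attaaactctagggggactttcttaaaaat
HOXB2, chr17:46620897-46620956: tcaccgaaaggcaggtcaaagtctggtttc
HOXA9, chr7:27203145-27203204: tagaaaaaagggtaagctagagagaaaaag
HOXA9, chr7:27202588-27202647: aaacagttgcatagagtatagctctgtagt
HOXA10, chr7:27211789-27213023: gctctccccggccccttccgagagcagcaa
HOXA10, chr7:27211235-27211294: gccatatcatgctaaaattctatagagata
The first HOXA10 probe spans more of the genome than its own length, as a probe across an exon junction does. Both HOXB2 probes were well above background on all arrays. The second probes of HOXA9 and HOXA10 read 1.88 to 2.06 and 1.86 to 1.97 on the log2 scale over the 8 arrays and were above background on none. HOXA6, HOXD3 and HOXD9 also had 2 probes, none of which was above background on both arrays of a group. Between the lines the HOXA6 probes differed by -1.096 and 0.51 and the HOXD9 probes by -0.008 and -1.15, the first of each pair standing for the gene.

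Values are log2 of the scanner software's processed signal, quantile normalized over the 8 arrays, and "above background" means that the software marked the spot as well above its background. Of the 58717 spots that are not controls, 32071 to 37340 were above background per array (54.6 to 63.6%), and no spot was saturated. The number of arrays, 2 per group, limits the precision of every value. RNA integrity was 8 on both TT_CTL arrays and 9 on the other 6, and each of the 4 slides held arrays of 1 line. In the comparison of the lines, the line therefore cannot be told apart from slide, growth medium and control reagent. With TT_AntagomiR-375, whose RNA integrity was that of the ORI arrays, in place of TT_CTL, the same 15 HOX genes were called. All 9 C cell markers on the array were higher in TT_CTL than in ORI_CTL (median log2 difference 7.64). Of 9 follicular markers 4 were above background in ORI_CTL and 6 in TT_CTL. FOXE1 and PAX8 were high in ORI cells, whereas NKX2-1 and TSHR were not above background there, and thyroglobulin (TG) was higher in TT_CTL by 4.26, so the ORI arrays show only part of a follicular cell's markers. The leading C cell marker CALCA, which encodes calcitonin, read 18.49 and 18.61 in TT_CTL. Of 5 fibroblast markers 4 were lower in TT_CTL, and their summed linear signal was 11400 to 20200 on the ORI_CTL arrays and 21.2 to 21.4 on the TT_CTL arrays. Blood markers were above background in 3 of 3 genes and endothelial ones in 2 to 3 of 3 in the controls of both lines, with summed signals of 393 to 636 and 169 to 221. PTPRC and PECAM1 were higher and VWF lower in TT_CTL. The part of these markers in the HOX values was not tested.

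In both lines no HOXD gene was read above background on both arrays of a group, HOXA was read at 3 positions, and HOXB and HOXC were read at more positions in TT than in ORI cells. A gene was counted when it was above background on both arrays of the group, and 12 of 39 were counted in ORI_CTL (HOXA 3, HOXB 5, HOXC 4, HOXD 0) and 18 in TT_CTL (HOXA 3, HOXB 9, HOXC 6, HOXD 0). HOXA9 and HOXA10 are counted by their brighter probe, and the second probe of each was above background on no array. The TT_CTL arrays read more spots of any kind above background, 60.8 and 63.6% against 56.4 and 56% in ORI_CTL. Their lowest signal above background was also lower, 3.77 and 3.44 against 4.32 and 4.40. The transfected cells gave nearly the same maps, with 11 genes in ORI_premiR-375 and 18 in TT_AntagomiR-375. On both arrays of every group 11 genes were read, namely HOXA5, HOXA9, HOXA10, HOXB2, HOXB4, HOXB6, HOXB13, HOXC4, HOXC6, HOXC8 and HOXC9. Another 6 were read on all 4 TT arrays and on both arrays of no ORI group, namely HOXB3, HOXB5, HOXB7, HOXB8, HOXC5 and HOXC10. The remaining gene read on both arrays of some group was HOXB9, which was below background on 1 ORI_premiR-375 array. In the TT cells every HOXB gene from HOXB2 to HOXB9 was read, together with HOXB13, and only HOXB1, at the 3′ end, was not.

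**Figure D1:**
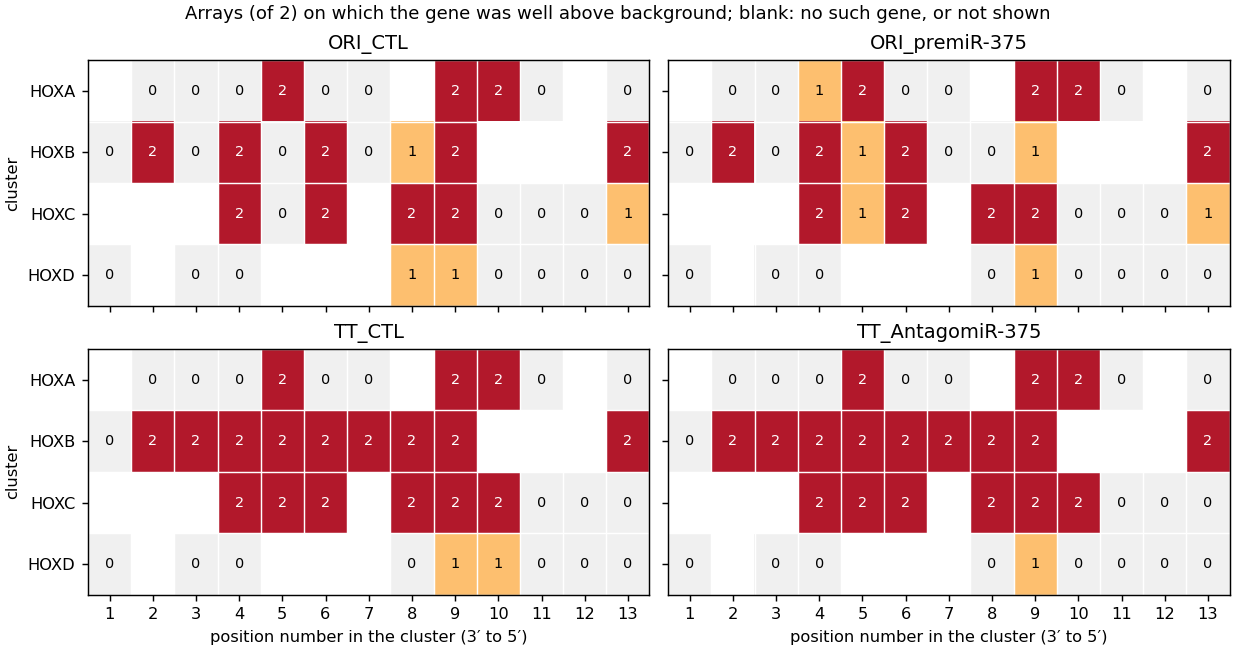
Number of arrays, of 2 per group, on which each HOX gene was well above background, by cluster (rows) and position number (columns), 1 panel per group; blank cells have no gene on the array or none shown. The HOXB row fills from position 2 to 9 in both TT panels, and no HOXD gene reaches 2 arrays in any panel.

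No array read 16 of the genes above background, among them HOXA2, HOXA3, HOXA6, HOXA7, HOXA11, HOXA13, HOXB1, HOXC11, HOXC12, HOXD1, HOXD3, HOXD4, HOXD11, HOXD12 and HOXD13. HOXA4, HOXC13, HOXD8, HOXD9 and HOXD10 were above background on at most 1 array of any group. By position, 2 of the 8 genes at positions 1 to 3 were read in TT_CTL, 13 of the 19 at positions 4 to 9, and 3 of the 12 at positions 10 to 13. The same counts in ORI_CTL were 1, 9 and 2. HOXA3 itself read 3.42 and 1.88 in ORI_CTL and 1.83 and 1.78 in TT_CTL, all within the background.

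Between the controls of the lines, 14 HOX genes were higher and 1 was lower in TT_CTL (limma, adjusted p of at most 0.05 over all probes). These are 35.9% and 2.56% of the 39 genes, while of all 50599 probes 14.8% were higher and 15.3% lower. The genes called higher were 9 of 10 in HOXB and 5 of 9 in HOXC, and none was called in HOXA or HOXD. The median log2 difference was 3.89 over the HOXB genes, 2.12 over HOXC, -0.37 over HOXA and -0.01 over HOXD, against -0.05 over all probes. Both TT_CTL arrays lay above both ORI_CTL arrays in 17 of the 39 genes, or 43.6%, beside 27.8% of all probes, and below them in 10, or 25.6%, beside 37.6%. Over the 18 HOX genes above background in either control the median log2 difference was 3.55, and over all probes above background in either control -0.01. Of these 18 genes, 6 met the background rule in TT_CTL only, where they read high. The median of 3.55 is therefore not separate evidence of a difference. Fewer cells of a type and less RNA per cell cannot be told apart in such bulk samples.

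**Figure D2:**
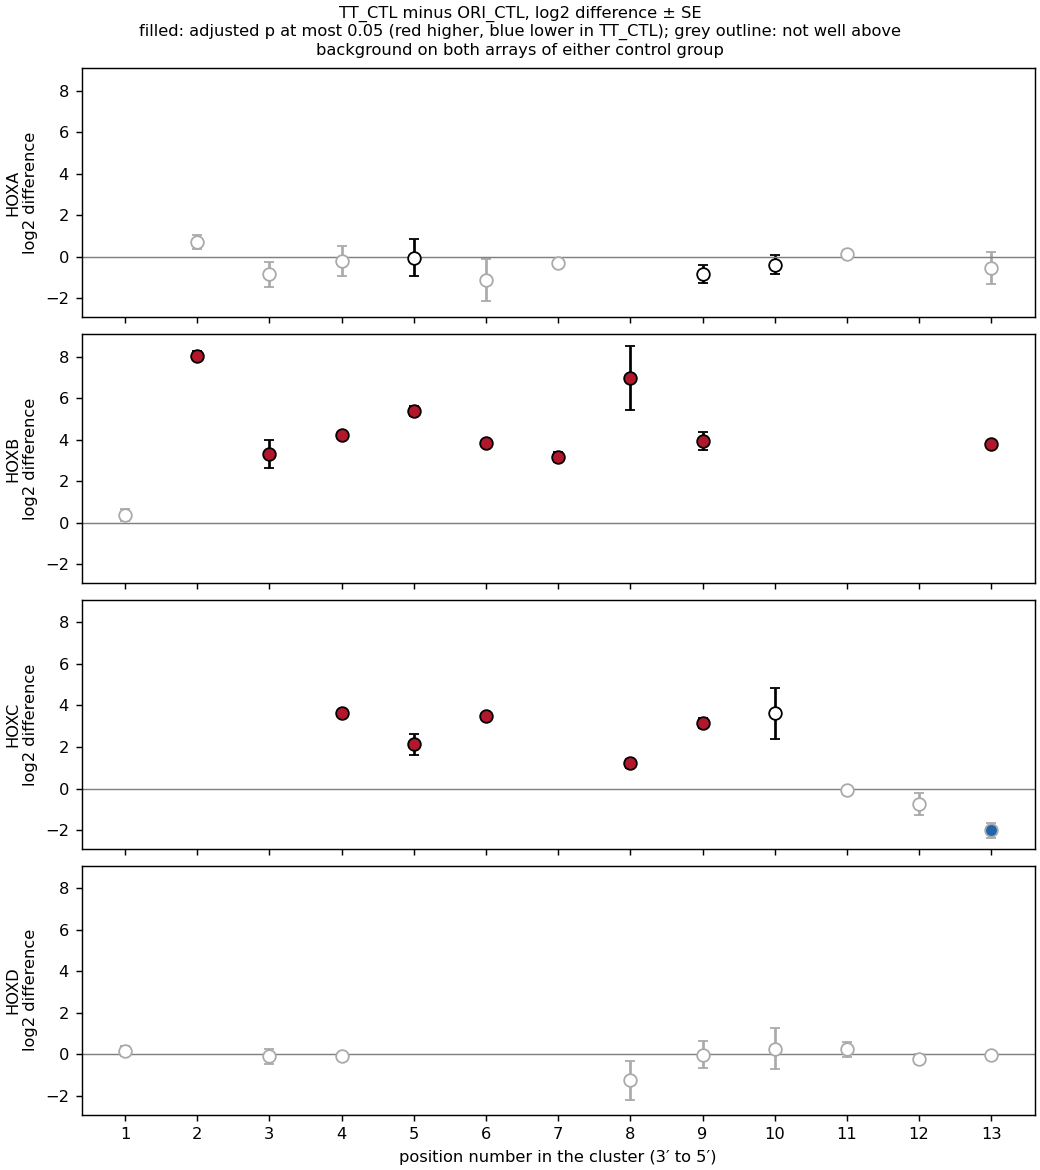
Log2 difference TT_CTL minus ORI_CTL with its standard error (vertical bars), by position number, 1 panel per cluster, for the genes reported here. Filled points passed the adjusted p of 0.05 (red higher, blue lower in TT_CTL), and grey outlines mark genes not above background on both arrays of either control. The HOXB points from position 2 to 13 lie between 3.16 and 8.04, while the HOXA points lie between -1.096 and 0.70.

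HOXB2, which patterns the hindbrain, showed the largest difference. Its values were 5.60 and 5.91 in ORI_CTL and 13.64 and 13.94 in TT_CTL, a log2 difference of 8.04 ± 0.23 (SE) or 263-fold (adjusted p = 1.56e-05). The groups lay far apart on both probes of the gene, but the second gave 5.93 and 6.12 against 9.87 and 10.23, a difference of 4.03 ± 0.51 or 16.3-fold (adjusted p = 0.00292). The direction is thus shared by both probes and the size is not.

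HOXB8, a gene known from spinal cord and myeloid precursors, followed with a difference of 6.98 ± 1.55 (adjusted p = 0.0226). Its ORI_CTL arrays disagreed: replicate 1 read 1.74, not above background, and replicate 2 read 6.03, above it. TT_CTL read 11.28 and 10.44, above both. The call rests on the spread shared with the transfected arrays: with the 4 control arrays alone the adjusted p was 0.0724, and without TT_CTL replicate 1 or 2 it was 0.114 or 0.103. Without ORI_CTL replicate 1 or 2 it stayed called, and the difference was 4.83 without replicate 1 and 9.12 without replicate 2, so its size depends on that group's single array above background. Normexp correction gave 4.58. Both ORI_premiR-375 arrays read the gene at background, 1.75 and 1.77.

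HOXB5, which acts in the neural crest and gut nervous system, read 3.87 and 4.41 in ORI_CTL, below background on both arrays, and 9.48 and 9.57 in TT_CTL. The fitted difference was 5.38 ± 0.22 (adjusted p = 5.39e-05), and TT_CTL was at least 35.6-fold higher than what the ORI_CTL arrays could read. With normexp correction the difference was 3.16. Such a bound takes, for each dim array, the higher of the probe's own value and the lowest signal above background.

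HOXB4, known for its part in blood stem cells, read 7.08 and 7.41 in ORI_CTL and 11.44 and 11.49 in TT_CTL, a difference of 4.22 ± 0.16 (adjusted p = 4.36e-05). HOXB9, a gene of the thoracic region, read 5.82 and 6.66 against 10.42 and 9.96, a difference of 3.95 ± 0.43 (adjusted p = 0.00168). HOXB6, which is used in limb and blood precursors, read 8.98 and 9.17 against 12.80 and 13.03, a difference of 3.84 ± 0.16 (adjusted p = 5.78e-05). In each of these genes every TT_CTL array lay above every ORI_CTL array, and the gap was several times the difference between replicates.

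The remaining HOXB genes called were HOXB13, HOXB3 and HOXB7. HOXB13, the most posterior gene of the cluster and a marker of prostate and distal colon, read 7.32 and 6.96 in ORI_CTL and 10.96 and 10.92 in TT_CTL (difference 3.80 ± 0.16, adjusted p = 5.5e-05). HOXB3 and HOXB7 were below background on both ORI_CTL arrays, and TT_CTL was at least 5.49-fold and 3.13-fold higher (adjusted p = 0.0165 and 0.000528). The HOXB3 call was lost without TT_CTL replicate 1 (adjusted p = 0.0743), without replicate 2 (0.0933) and with the control arrays alone (0.0521). Normexp background correction, which adds an offset that pulls dim values together, left both genes called with smaller differences, 1.17 for HOXB3 and 0.85 for HOXB7. HOXB1, a hindbrain gene, read 1.88 and 1.96 in ORI_CTL and 2.69 and 1.92 in TT_CTL and was not above background on any array.

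In HOXC, the genes HOXC4 to HOXC9 were higher in TT_CTL, by 1.22 to 3.63. HOXC4, which shares with HOXC5 the start whose window is printed above, read 7.97 and 7.71 in ORI_CTL and 11.41 and 11.52 in TT_CTL (difference 3.63 ± 0.16, adjusted p = 7.13e-05). HOXC5 was below background in ORI_CTL, at 4.18 and 3.80, and read 6.22 and 6.004 in TT_CTL, at least 3.37-fold higher (adjusted p = 0.0263). The HOXC5 call was lost whichever of the 4 control arrays was left out (adjusted p = 0.0891 and 0.0766 without ORI_CTL replicate 1 and 2, 0.116 and 0.095 without TT_CTL replicate 1 and 2), and with normexp correction the difference was 0.67.

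HOXC6, which marks the brachial and upper thoracic region, read 8.26 and 8.15 in ORI_CTL and 11.62 and 11.76 in TT_CTL (difference 3.48 ± 0.12, adjusted p = 3.17e-05). HOXC9, a thoracic motor neuron gene, read 8.78 and 8.16 against 11.64 and 11.61 (difference 3.15 ± 0.23, adjusted p = 0.000365). HOXC8 showed the smallest difference among the genes called, with 8.13 and 7.61 against 9.07 and 9.10 (difference 1.22 ± 0.22, adjusted p = 0.0109). The HOXC8 call was lost without ORI_CTL replicate 2 (adjusted p = 0.0537).

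Toward the 5′ end of HOXC the picture changed. HOXC10, a gene of the lumbar region and hindlimb, read 1.75 and 3.58 in ORI_CTL, below background, and 6.35 and 6.22 in TT_CTL, at least 3.80-fold higher, but the fit did not call it (difference 3.62 ± 1.24, adjusted p = 0.0884). It was called with normexp correction (difference 1.103, adjusted p = 0.00274), with the control arrays alone (0.0489), without the slide term (0.0312) and without ORI_CTL replicate 2 (0.0243). HOXC11 and HOXC12 were not above background on any array. HOXC13, a gene of hair and nail, was the only HOX gene called lower: it read 3.57 and 4.49 in ORI_CTL, above background on 1 of 2 arrays, and 1.77 and 2.27 in TT_CTL, below it on both (fitted difference -2.01 ± 0.35, adjusted p = 0.00929). Since TT_CTL gives only a bound, ORI_CTL was at least 1.34-fold higher, and most of the fitted difference lies below the lowest signal above background. With normexp background correction its difference was -0.27 (adjusted p = 0.115), and with the control arrays alone its adjusted p was 0.0608.

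**Figure D3:**
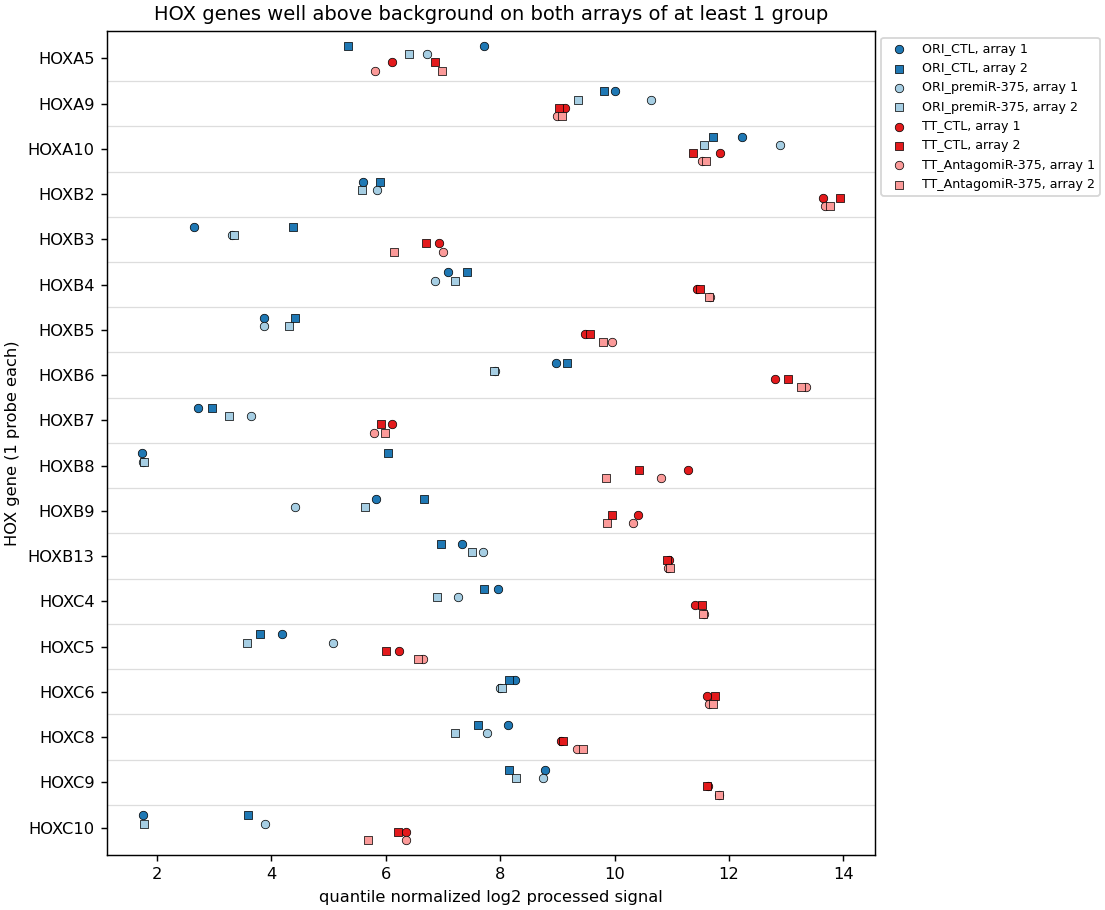
Quantile normalized log2 processed signal of the 18 HOX genes above background on both arrays of at least 1 group, 1 point per array (circle replicate 1, square replicate 2), coloured by group. Levels are to be compared along a row only, since each row is another probe. In the HOXB and HOXC rows all 4 TT points lie to the right of all 4 ORI points, and in the HOXA rows the lines overlap or lie close.

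In HOXA no gene was called between the lines. The HOXA9 and HOXA10 values are those of the brighter probe of each gene, the other being at background on every array. HOXA10, known from the uterus and from leukaemia, read 12.23 and 11.72 in ORI_CTL and 11.84 and 11.37 in TT_CTL, values that overlap (difference -0.37, 95% interval -1.53 to 0.80). HOXA9, another gene of blood precursors and leukaemia, read 10.01 and 9.81 against 9.13 and 9.03 (difference -0.83, 95% interval -1.95 to 0.28, adjusted p = 0.251). HOXA5, a lung and thoracic gene, varied most among replicates, with 7.72 and 5.34 in ORI_CTL and 6.11 and 6.86 in TT_CTL (difference -0.04, 95% interval -2.27 to 2.18). With the control arrays alone HOXA9 was called lower in TT_CTL (adjusted p = 0.0362), the only alternative that called it. The intervals leave room for a change of more than 1 log2 unit in each of these genes, and HOXA9 was lower in TT_CTL on both arrays. The other 8 HOXA genes were not above background in either control, with differences of -1.096 to 0.70.

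In HOXD, which drives limb and digit formation, no gene was above background on both arrays of any group. HOXD9 came nearest, above background on 1 array of each group, with 3.73 and 5.57 in ORI_CTL and 4.14 and 5.15 in TT_CTL. HOXD8 was above background on 1 ORI_CTL array and HOXD10 on 1 TT_CTL array. Differences over the 9 genes ran from -1.25 to 0.27, and the smallest adjusted p was 0.419. By paralog group, positions 4, 5, 6, 8 and 9 each had 2 genes called higher, positions 2, 3, 7 and 13 had 1 each, and positions 1, 10, 11 and 12 had none. At position 9, HOXB9 and HOXC9 were higher in TT_CTL whereas HOXA9 and HOXD9 were not called.

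The proteins that HOX factors bind DNA with, of the PBX, MEIS and PKNOX families, differed in both directions. Of 9 such cofactors 3 were higher (among them MEIS2 and MEIS3) and 2 lower (PBX4, PKNOX1) in TT_CTL, and the median difference was 0.58. Of all probes, 14.8% were higher and 15.3% lower. PBX4 read 9.29 and 8.68 in ORI_CTL and 6.56 and 6.32 in TT_CTL (difference -2.54 ± 0.24, adjusted p = 0.00102). In the transfections no cofactor passed the adjusted p.

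Of 27 genes on the array that act upstream of the clusters or on their chromatin, 6 were higher and 4 lower in TT_CTL. The shares of all probes were 14.8% higher and 15.3% lower. The median difference of the 27 genes was 0.05. Among the higher ones were CYP26A1, which breaks down retinoic acid, and CBX2, CBX7, CBX8 and RNF2, members of Polycomb repressive complex 1. The lower ones were EZH2 and EED, of Polycomb repressive complex 2, WDR5, of the MLL complexes, and the retinoic acid receptor RARG. EZH2, the methyltransferase of its complex, read 12.21 and 12.30 in ORI_CTL and 10.98 and 11.00 in TT_CTL (difference -1.26 ± 0.11, adjusted p = 0.000804). CBX8 read 7.13 and 7.10 against 8.49 and 8.68 (difference 1.47 ± 0.19, adjusted p = 0.00296). No gene of this group passed the adjusted p with either transfection, and 7 and 4 of the 27 had an unadjusted p under 0.05 with the precursor and the inhibitor, beside 14.3% and 9.72% of all probes.

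Of 16 non-coding RNAs and neighbouring genes of the clusters, 4 were higher and none lower in TT_CTL, beside 14.8% and 15.3% of all probes. The median difference of the 16 was -0.14. The 4 called higher were SKAP1 and TTLL6, on either side of HOXB, and SMUG1 and CBX5, which lie beyond HOXC. TTLL6 was below background in ORI_CTL, at 1.92 and 1.90, and read 3.98 and 4.78 in TT_CTL. The bound for TTLL6 was only 1.01-fold. SKAP1, an adaptor protein of lymphocytes, was below background in ORI_CTL, at 2.02 and 2.05, and read 6.39 and 6.57 in TT_CTL, at least 4.34-fold higher (adjusted p = 3.05e-05). The neighbours of HOXA (SKAP2, EVX1, HIBADH) and HOXD (EVX2, MTX2) were not called. Nor were SNX11, PRAC and HOXB13-AS1, which lie in or beside HOXB (differences -0.16, -0.60 and -0.11). HOXB13-AS1 was above background on every array and PRAC on none. HOTAIR, the non-coding RNA between HOXC11 and HOXC12, had 9 probes, of which only the brightest was used. That probe was above background on every array and was not called (difference -0.34 ± 0.32). HOTAIRM1 and HOTTIP, of the HOXA cluster and also represented by 1 probe each, were at background on every array. With the transfections none of the 16 passed the adjusted p, and 1 had an unadjusted p under 0.05 in each line, a share below that of all probes.

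The precursor of miR-375 left no HOX gene past the adjusted p in ORI cells, nor any other probe (0 of 50599, 0%), and the smallest adjusted p among the HOX genes was 0.318. At an unadjusted p under 0.05 there were 5 of 39 HOX genes, or 12.8%, and 7257 of all probes, or 14.3%, so the HOX genes were called no more often than the rest. Of the 12 genes above background in ORI_CTL or ORI_premiR-375, 3 differed by -0.6 or less in the same direction in both pairs of arrays and 0 by 0.6 or more, beside 8.82% and 7.99% of all probes above background. A pair here is the transfected and the control array of equal replicate number, which share a slide. The 3 genes were HOXB6, HOXB9 and HOXC4, of which HOXB9 met the background rule in ORI_CTL only, the group where it was higher.

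HOXB6 read 8.98 and 9.17 in ORI_CTL and 7.90 and 7.90 in ORI_premiR-375, differences of -1.08 and -1.27 in the pairs (fit -1.17 ± 0.11, adjusted p = 0.318). Both treated arrays lay below both control arrays, as in HOXB9, HOXC4 and HOXC6 (4 of 12 genes, or 33.3%, beside 18.2% of all probes above background). The reverse held for 1 of 12, HOXB13, beside 19.7% of probes. HOXB6 passed the adjusted p with normexp background correction (0.0335) and when dim probes were left out (0.0471). HOXB9 read 5.82 and 6.66 against 4.42 and 5.64, differences of -1.41 and -1.02, with 1 of the transfected arrays below background. HOXC4 read 7.97 and 7.71 against 7.26 and 6.90, differences of -0.71 and -0.81.

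HOXC8 differed by -0.37 and -0.40 in the pairs, HOXC6 by -0.26 and -0.12 and HOXB4 by -0.22 and -0.20. Among the 12 genes above background, HOXB13 was the only one higher in both pairs, by 0.37 and 0.55, with values of 7.32 and 6.96 in ORI_CTL and 7.69 and 7.51 in ORI_premiR-375. HOXA5, HOXA9, HOXA10, HOXB2 and HOXC9 differed in opposite directions in the pairs. The second HOXB2 probe, above background on every array, was lower in both pairs, with differences of -0.03 and -1.49 (fit -0.76 ± 0.52, adjusted p = 0.612). Among the C cell markers, CALCA, CHGA, CHGB, SCG3 and SYP were above background on both ORI_premiR-375 arrays and on neither ORI_CTL array, and the summed linear signal of the list was 378 to 523 against 154 to 185, beside 505000 to 564000 in TT_CTL. The summed fibroblast signal was 27100 to 29800 against 11400 to 20200, most of it from COL1A1. The fibroblast markers above background on both ORI_CTL arrays went in both directions. COL1A1 differed by 0.62 and 1.31 in the pairs, PDGFRB by -0.78 and -0.40 and THY1 by -1.63 and -0.89. HOXA4, HOXB5 and HOXC5 were above background on 1 ORI_premiR-375 array each and on no ORI_CTL array. HOXB8 and HOXD8 were the reverse, above background on 1 ORI_CTL array each and on no ORI_premiR-375 array. The part of either marker list in these values was not tested. HOXB8, above background on 1 ORI_CTL array only, differed by 0.01 in pair 1 and -4.26 in pair 2.

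The inhibitor of miR-375 left no HOX gene past the adjusted p in TT cells either, nor any other probe (0 of 50599, 0%), and the smallest adjusted p among the HOX genes was 0.512. At an unadjusted p under 0.05 there were 2 HOX genes, or 5.13%, beside 9.72% of all probes. None of the 18 genes above background differed by 0.6 or more in either direction, beside 3.31% of probes lower and 4.5% higher by that rule. The differences were the same in direction in both pairs for 10 of the 18, 7 higher and 3 lower.

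**Figure D4:**
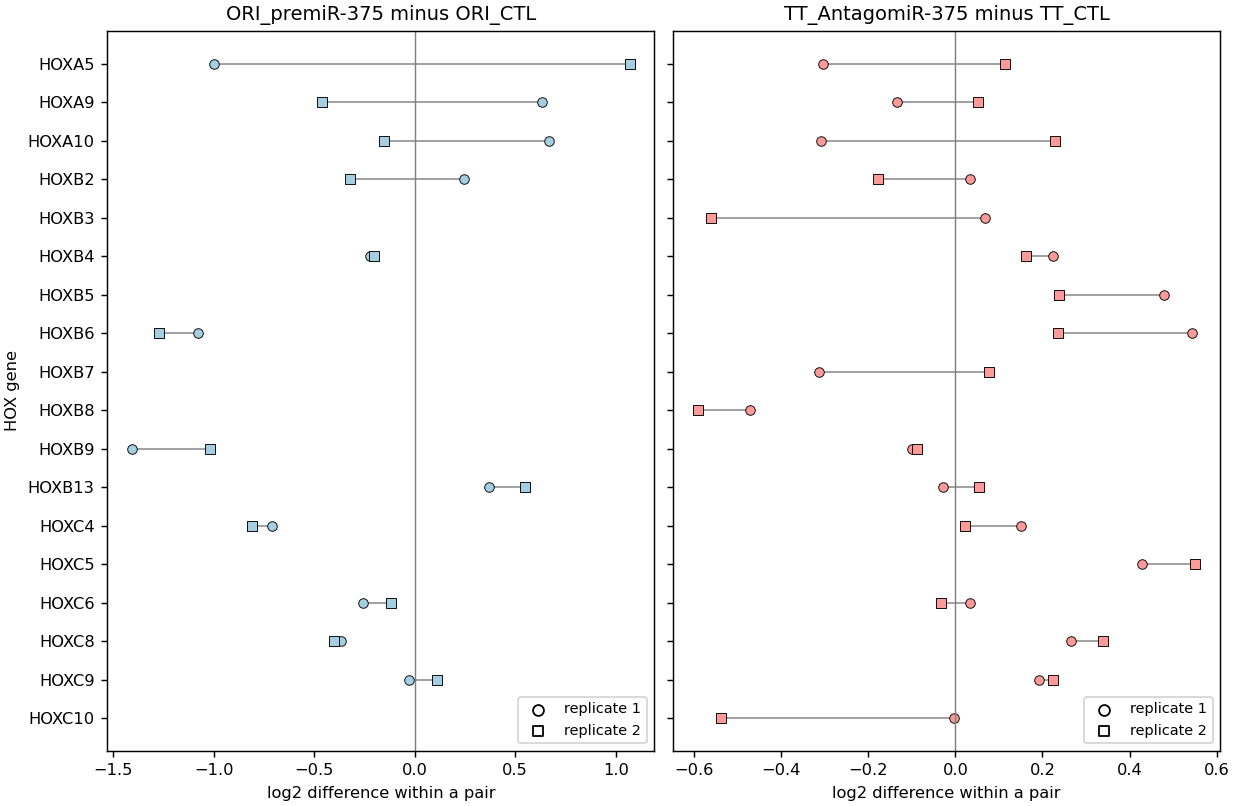
Log2 difference between the transfected and the control array of each pair (circle replicate 1, square replicate 2) for the HOX genes above background in that line, with pre-miR-375 in ORI cells on the left and antagomiR-375 in TT cells on the right. The horizontal scales of the panels differ. HOXB6, HOXB9 and HOXC4 lie at or below -0.71 in both ORI pairs, and no TT point lies beyond 0.6 in either direction.

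Among the 18 genes above background, HOXC5 showed the largest difference of those higher in both pairs, with 6.22 and 6.004 in TT_CTL and 6.65 and 6.56 in TT_AntagomiR-375, or 0.43 and 0.55 in the pairs (fit 0.49 ± 0.09, adjusted p = 0.512). HOXB6 read 12.80 and 13.03 against 13.34 and 13.27, differences of 0.54 and 0.24, and HOXB5 read 9.48 and 9.57 against 9.96 and 9.81, differences of 0.48 and 0.24. For HOXC8 the values were 9.07 and 9.10 against 9.34 and 9.44, differences of 0.27 and 0.34. With the inhibitor 7 of the 18 genes, or 38.9%, had higher values on both treated arrays than on both control arrays, the 7 being these 4 with HOXB4, HOXC4 and HOXC9, and none had lower values on both. Of all probes above background 21.7% were higher and 23.4% lower in this way.

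On the negative side, HOXB8 read 11.28 and 10.44 in TT_CTL and 10.81 and 9.84 in TT_AntagomiR-375, differences of -0.47 and -0.59 (fit -0.53 ± 0.09, adjusted p = 0.512). The replicates of each group differed by more than that, and the groups overlapped. HOXC10 differed by -0.003 and -0.54 and HOXB9 by -0.10 and -0.09. HOXC9, HOXB4 and HOXC4 were higher in both pairs, by 0.19 and 0.22, by 0.22 and 0.16, and by 0.15 and 0.02.

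The transfections act in opposite directions on miR-375 in different cells and share no arrays, so their directions were set side by side for the 12 genes above background in a group of each line. HOXB4, HOXB6, HOXC4 and HOXC8 were lower in both pairs with the precursor and higher in both pairs with the inhibitor. These are 4 of 12 genes, or 33.3%, while 12.4% of the 24124 probes above background in both lines did the same. None of the 12 was higher with the precursor and lower with the inhibitor (15.2% of probes). HOXB9 was lower in all 4 pairs (10.4% of probes) and none was higher in all 4 (10.5% of probes). This grouping was chosen after the values had been seen, it rests on 12 genes, and none of the 4 genes passed the adjusted p in either line.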

How the data were processed

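RNA of 8 samples, 2 per group, was labelled with 1 dye and hybridised to Agilent arrays. The authors deposited the scanner output of Feature Extraction 10.10.1.1 per array, in which the intensity of a spot is the background-subtracted processed signal, and a table of their log2 values after quantile normalization; the second served as an alternative only. Probe positions are those of the deposited files (hg19).

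Control spots and spots flagged as outliers (341 to 428 per array) were left out, spots of a probe were averaged, and log2 processed signals were quantile normalized over the 8 arrays (limma 3.58.1, R 4.3.3). The scripts were tested on simulated data. The probe with the highest mean over the 8 arrays stood for a gene. TT_CTL was compared with ORI_CTL in a limma fit of the 4 group means with slide as a random block (correlation 0.501). Each transfection was fitted in its own line with replicate number as a block, since equal numbers shared a slide and deviated together (r = 0.802 in ORI and 0.346 in TT over 22186 probes). P-values were adjusted by Benjamini and Hochberg over 50599 probes with a threshold of 0.05. An exact permutation test of 2 against 2 arrays cannot give a two-sided p below 0.333, so none was used.

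HOX members were taken by name. Array values were given for the 6 HOX genes with the largest called difference per direction between lines, for the 4 largest per direction with the same sign in both pairs of a transfection, and for further members chosen after their values were seen. Members and lists were chosen with earlier results of these data known. Alternatives covered scaling, background correction, outlier spots, dim probes, variance trend, probe choice, the samples and blocks of the fit, and leaving out arrays. RefSeq promoter windows matched 20 of 39 genes. A few genes are not reported here by name, though counts and medians include them.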

Additional observations from a re-analysis of the deposited data

How the results depend on the processing

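Between the lines, 11 to 16 HOX genes were called over all alternatives, beside 15 as reported, and 12 to 16 when a single control array was left out. HOXB2, HOXB4, HOXB5, HOXB6, HOXB7, HOXB13, HOXC4, HOXC6 and HOXC9 were called in each of the 15 settings run for them. With TT_AntagomiR-375, whose RNA integrity was 9, in place of TT_CTL (an alternative chosen after seeing the data), the same 15 genes were called. Genes called in a single alternative only were HOXA9 with the control arrays alone, HOXC12 and HOXD8 without ORI_CTL replicate 1, HOXA3 without ORI_CTL replicate 2 and HOXB1 without TT_CTL replicate 2, and the last 4 are not above background in either control on both arrays. No called difference changed sign. Of all probes, 12192 to 13661 were called with a control array left out, beside 15248 as reported.

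Equal replicate numbers of different lines share no slide, and no source pairs them; the replicate differences of the controls correlated at r = 0.199. With the control arrays alone and a replicate block, 7460 of all probes and 11 HOX genes were called, HOXB3, HOXB8, HOXB9 (adjusted p = 0.0515) and HOXC8 no longer among them. Without the replicate block, no HOX gene was called with either transfection, as with it.

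With the precursor, 1 HOX gene (HOXB6) was called after normexp correction and 1 with dim probes left out, beside 0 as reported. Of all probes 1560 and 999 were called there and 569 with the values as deposited, beside 0 as reported. The cause was not tested, except that fewer probes were tested when dim ones were left out (26320). With the inhibitor no probe was called in any setting. On at least 1 array, rather than both, 17 HOX genes were above background in ORI_premiR-375, beside 11 as reported. A single array per replicate and signal over background limit the dim genes: HOXB3, HOXB5, HOXB7, HOXC5 and HOXC10 have only a bound in ORI_CTL.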
